A study of Canis lupus familiaris and Felis catus with 4 samples.

Results

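The miR-181 family was described in the small RNA of urinary exosomes (UExo) from cats and dogs. Its members were taken by their names in the table, mmu-miR-181a-5p, mmu-miR-181b-5p, mmu-miR-181c-5p and mmu-miR-181d-5p (mmu marks the mouse), with every genomic copy, which gave 6 of the 2031 entries of the table and 4 of its 1898 mature names. The study pooled urine RNA into 1 library per group: 43 cats with normal renal function (NR), 45 cats with kidney disease (KD), 37 NR dogs and 47 KD dogs. The animals were hospital patients in the case of cats, assigned to KD from serum creatinine, blood urea nitrogen, urine colour and the veterinarian's diagnosis, and the criteria for dogs are not given in the sources used here. A pooled library holds the mixture of its animals, so the spread between animals is unknown, no test between NR and KD was possible, and every interval below covers counting error only. Fewer exosomes of a given origin and less miRNA per exosome cannot be told apart in such a pool.

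A miRNA is a short RNA that binds messenger RNAs mainly through its seed, the bases near its 5′ end, and lowers their translation or stability. The miR-181 family is conserved among vertebrates and is encoded as clusters of neighbouring precursors. In mice miR-181a is abundant in thymocytes and sets the sensitivity of T cells to antigen, and family members are also present in brain, vascular and epithelial tissues. Each precursor can give a 5p and a 3p mature strand, of which the 5p strand is usually retained.

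The mouse genome build mm10, on which the cat and dog reads were placed, holds the 6 entries as 3 pairs. miR-181a-5p lies on the plus strand of chromosome 1 (137966468 to 137966490) and again on the plus strand of chromosome 2 (38852741 to 38852763). miR-181b-5p follows on the same strand at each place, at 137966650 to 137966672 of chromosome 1 and at 38853845 to 38853867 of chromosome 2. miR-181c-5p (84178924 to 84178945) and miR-181d-5p (84178759 to 84178781) are neighbours on the minus strand of chromosome 8. The start positions within a pair are 182 bases apart on chromosome 1, 1104 on chromosome 2 and 165 on chromosome 8. RefSeq's annotation of the dog assembly UU_Cfam_GSD_1.0 lists 6 MIR181 genes in the same 3 pairs, MIR181A-1 with MIR181B-1, MIR181A-2 with MIR181B-2, and MIR181C with MIR181D. The mature sequences follow because they decide which members a read can tell apart. They are given as the deposited table writes them, 5′ to 3′ in DNA letters, with the seed (bases 2 to 8) in capitals.
miR-181a-5p: aACATTCAacgctgtcggtgagt
miR-181b-5p: aACATTCAttgctgtcggtgggt
miR-181c-5p: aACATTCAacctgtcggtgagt
miR-181d-5p: aACATTCAttgttgtcggtgggt

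All 6 entries carried the same seed, and 0 other entries of the table had it. Counted from 1 at the 5′ end of miR-181a-5p, miR-181b-5p differed by A9T, C10T and A21G, and miR-181d-5p differed from miR-181b-5p by C12T alone. miR-181c-5p is 22 bases long and aligned to the 23 bases of miR-181a-5p with 22 identical bases and 1 base missing. Thus miR-181a and miR-181c share their first 10 bases, and miR-181b and miR-181d their first 11. The copies of miR-181a-5p on chromosomes 1 and 2 are identical, as are those of miR-181b-5p, so a read of the mature sequence cannot be assigned to a copy. Mature sequences of cats and dogs were not used here, and a base that differs from the mouse could lower a member's count.

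miR-181a-5p made up nearly the whole family in every library. With its copies summed, NR cats had 771 reads of it, KD cats 143, NR dogs 373 and, in the deepest library, KD dogs 547. Among mature names ranked by reads, with copies summed, it was number 5 in the NR library of each species, number 10 in KD cats and number 11 in KD dogs. These sums and ranks would be too high if a read was counted at each copy, which the sources do not state. miR-181b-5p had 20, 9, 17 and 12 reads in the same order of libraries. miR-181c-5p had 4, 2, 11 and 13 reads, and miR-181d-5p had 0, 3, 2 and 4. A count of 0 allows up to 3 reads, a share of 0.0160% of the mature miRNA reads of NR cats, so miR-181d was not detectable at this depth rather than shown to be absent. Reads of all mature miRNAs numbered 18704 for NR cats, 23784 for KD cats, 20878 for NR dogs and 63355 for KD dogs, and counts of 20 or fewer in the minor members leave wide intervals.

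**Figure D1:**
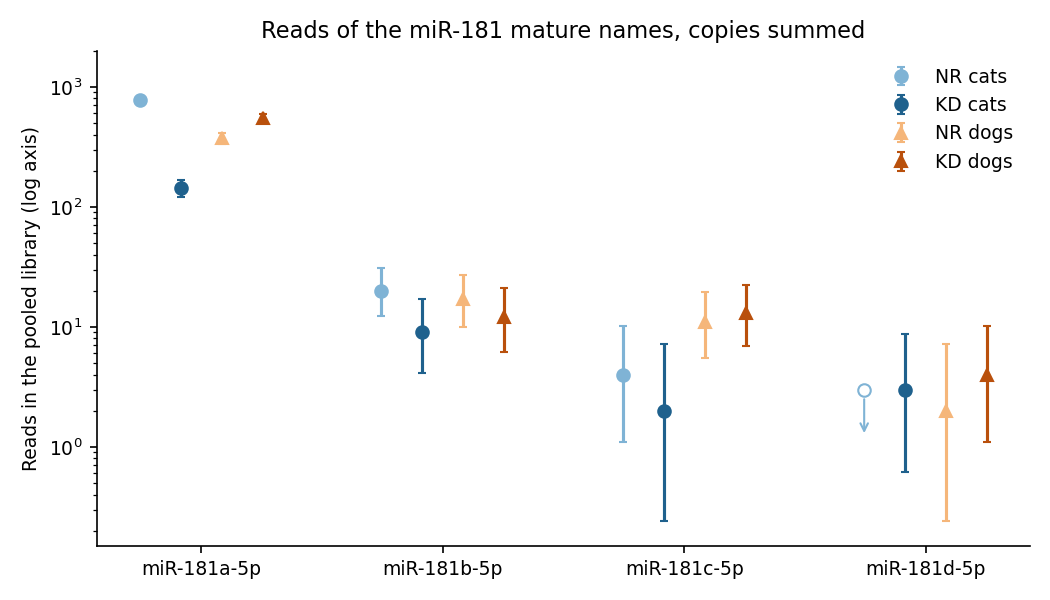
Reads of the 4 miR-181 mature names (x axis, genomic copies summed) in the 4 pooled libraries, on a log axis, with exact 95% Poisson intervals that cover counting error only. The open symbol marks the 0 reads of miR-181d-5p in NR cats at the limit of 3 reads that a count of 0 allows. miR-181a-5p lies between 143 and 771 reads and all other values at 20 reads or below.

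The family held a smaller share of the miRNA reads in KD than in NR libraries of each species. Of the mature miRNA reads of NR cats the 6 entries took 795, or 4.25% (95% exact binomial interval 3.97 to 4.55%), and of those of KD cats 157, or 0.660% (0.561 to 0.771%). In dogs they had 403 reads in NR, which is 1.93% (1.75 to 2.13%), and 576 in KD, which is 0.909% (0.837 to 0.986%). The intervals of NR and KD did not overlap in cats or in dogs. These shares depend on the few most abundant miRNAs of each pool, since the miR-10 entries alone took 44.7% of the reads of NR cats, 73.3% for KD cats, 74.9% for NR dogs and 70.4% for KD dogs. A reduced total was therefore also used, the reads left after removing the entries of miR-486, miR-3107 and miR-10. Of this reduced total the family held 8.16% in NR cats (7.62 to 8.72%) and 8.18% in NR dogs (7.43 to 8.98%). It held 4.73% of it in KD cats (4.04 to 5.51%) and 4.63% in KD dogs (4.27 to 5.02%). On this denominator the species overlapped within NR and within KD, and NR lay above KD in each. This denominator was chosen with the dominance of those entries already known.

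**Figure D2:**
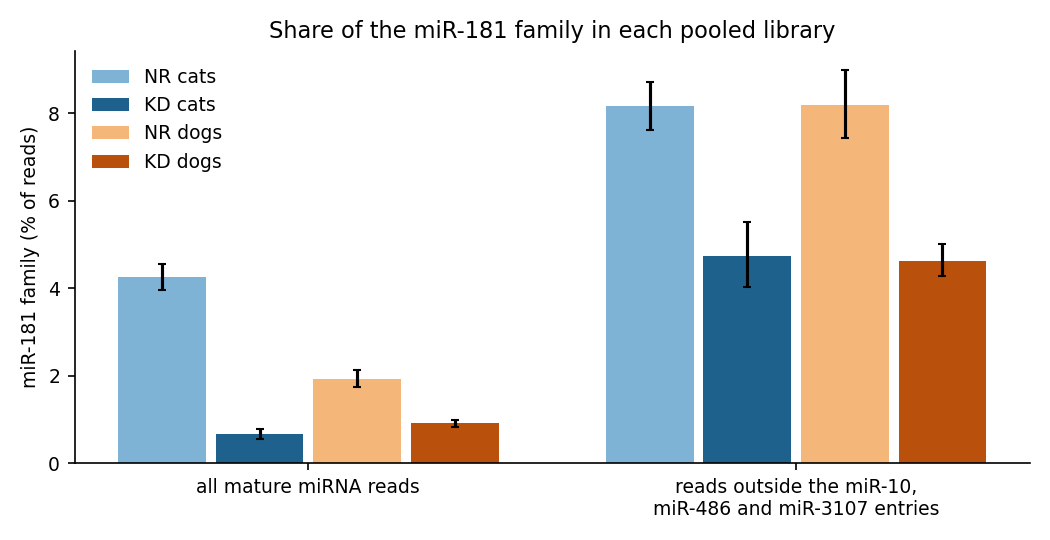
Share of the miR-181 family (y axis, % of reads) in the 4 pooled libraries, on the left of all mature miRNA reads and on the right of the reduced total, without miR-486, miR-3107 and miR-10. Bars are single libraries and whiskers 95% exact binomial intervals. On the right NR cats and NR dogs stand at 8.16% and 8.18%, and KD cats and KD dogs at 4.73% and 4.63%.

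On the deposited normalized values, miR-181a was lower in KD cats, and in KD dogs its value was close to that of NR dogs. Each value equals the count times a factor for its library, 1.16 for NR cats, 2.36 for KD cats, 0.689 for NR dogs and 0.531 for KD dogs. The normalized level of miR-181a-5p, copies summed, was 893 for NR cats and 337 for KD cats, 2.65-fold lower in KD. The log2 change was -1.41 (95% exact conditional interval of the ratio of 2 counts -1.67 to -1.15). In dogs the level was 257 in NR and 290 in KD, a log2 change of 0.18 whose interval, -0.02 to 0.37, includes 0. For the whole family the log2 change was -1.31 in cats (-1.57 to -1.07) and 0.14 in dogs (-0.05 to 0.33). By quantitative PCR of single cats, an unlike measure, the study describes raw and normalized miR-181a levels as unchanged. Its own fold for miR-181a from reads, also lower in KD cats, was larger than the 2.65 given here. That fold is listed beside the read numbers of a single miR-181a entry, whereas the 2.65 sums both copies on normalized values. The folds are thus unlike measures.

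By the study's cut-offs, over 2-fold with 150 reads in whichever library is higher, put here on the normalized values and without its criterion of kidney expression, both copies of miR-181a-5p counted as lower in KD cats. These were the only 2 of the 6 entries over 150 in a cat library, and of the 23 entries tested 30.4% were lower and 17.4% higher by this rule. The copies are 1 sequence, so they are not independent. With a mean level of at least 10 in place of the 150, 3 of the 6 entries were tested, both miR-181a-5p entries and miR-181b-5p on chromosome 1, and all 3 were past 2-fold lower. Over the 79 entries tested by that rule 35.4% were lower and 20.3% higher. The miR-181b-5p entry passed through NR, with levels of 18.5 in NR and 7.07 in KD cats. Its log2 change of -1.39 has an interval of -3.81 to 0.42 that includes 0. The identical copy on chromosome 2, with levels of 4.63 and 14.1, missed the minimum and went the other way. The low value of this miR-181b-5p entry is therefore no result about miR-181b-5p. In dogs 1 of the 6 entries passed the first minimum and 2 the second, and 0 were past 2-fold in either direction. The background in dogs was 0.00% lower and 43.8% higher of 16 entries by the first rule, and 0.00% lower and 51.9% higher of 54 by the second.

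The median entry lay below 0 in cats and above 0 in dogs on the deposited values, and relative to that median miR-181a was lower in both species by a similar amount. The median log2 change was -0.54 over the 79 cat entries with a mean level of at least 10 and 1.03 over the 54 such dog entries, on normalized levels with 1 added. The dog median depends on the scaling, at 0.11 with edgeR, -0.29 with total count scaling and -0.53 against the total without miR-10, and single dog entries such as those of miR-181b-5p lay below 0 on the deposited values too. Relative to these medians miR-181a-5p was at -0.86 in cats and -0.85 in dogs. The difference between the species in its log2 change, dog minus cat, was 1.58 on the normalized values (95% interval 1.25 to 1.91) and 0.0060 relative to the medians. With 1 library per group and species this difference was not tested beyond counting error.

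The direction of miR-181a in cats held under all 7 scalings computed, whereas in dogs it turned with the scaling. In cats the log2 change ran from -2.78 with total count scaling to -0.88 against the reduced total, where it was no longer past 2-fold. In dogs it was 0.55 on read counts without scaling (0.36 to 0.75) and 0.18 on the deposited values. It was below 0 beyond counting error under the other 5 scalings. It was -0.65 with TMM factors from edgeR, -0.67 with the median of ratios from DESeq2 and -0.78 against the reduced total. With total count scaling it was -1.05, and against the total without miR-10 -1.29. The deposited values are also described as TMM, yet their log2 factor of KD over NR in dogs was -0.38, against -1.20 with edgeR. The edgeR and DESeq2 factors were computed here within each species from the mature miRNA entries. Why the TMM factors differ was not tested. Relative to the median of all measured entries, miR-181a-5p lay between -0.86 and -0.73 in cats and between -0.85 and -0.76 in dogs. This near constancy follows by construction, because a scaling shifts all entries of a species alike. Only the 1 added to the levels and the entries that pass the minimum can alter it, so it is no separate support.

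**Figure D3:**
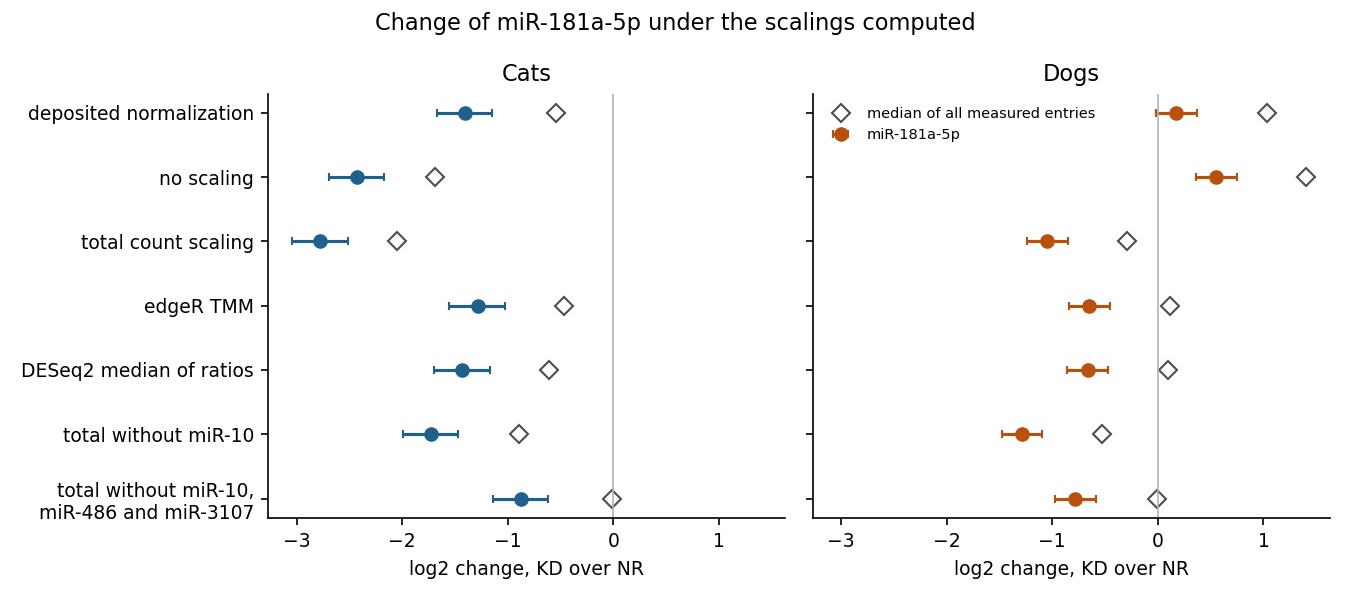
log2 change of miR-181a-5p from NR to KD (x axis) in cats on the left and dogs on the right under the 7 scalings (y axis), with 95% exact conditional intervals, and the median change of all entries with a mean level of at least 10 as open diamonds. miR-181a-5p lies left of the diamond in each row, by construction at nearly the same distance, since a scaling moves both alike. Its place relative to 0 shifts with the scaling in dogs, from -1.29 to 0.55.

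Ranking the changes within a species needs no scaling factor, and it placed miR-181a among the lower changes of cats and near the lowest of dogs. In dogs, of 38 mature names with at least 50 reads in the higher library, 1 had a lower change of reads from NR to KD than miR-181a-5p, namely miR-378a-3p. In cats 7 of 32 such names were lower: let-7i-5p, miR-16-5p, miR-22-3p, miR-142-5p, miR-204-5p, miR-320-3p and miR-378a-3p. Of the 28 names that met the minimum in both species, miR-378a-3p alone lay below miR-181a-5p in both. With a minimum of 20 reads 12 of 51 names were lower in cats and 4 of 57 in dogs, and with 100 reads 5 of 24 and 1 of 28. The KD dog library had 63355 reads against 20878 for NR dogs, so names reach the minimum more easily through KD. Names lower in KD dogs can fail it. At 20 reads miR-143-3p, miR-205-5p and miR-470-5p joined miR-378a-3p below miR-181a-5p in dogs. This ranking was added after the values were seen.

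The single copies of miR-181a-5p gave like values. On the chromosome 1 entry NR cats had 397 reads, KD cats 65, NR dogs 182 and KD dogs 258, and the chromosome 2 entry had 374, 78, 191 and 289. The log2 change in cats was -1.59 for the first (-1.99 to -1.20) and -1.24 for the second (-1.61 to -0.88). The ratio of the copies changed from NR to KD cats by a log2 of -0.35, with an interval of -0.89 to 0.19 that includes 0, so these changes did not differ beyond counting error. In dogs the log2 changes were 0.13 (-0.15 to 0.41) and 0.22 (-0.05 to 0.49).

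Reads of miR-181a-5p were split nearly evenly between its copies, which was not the case for most other duplicated sequences of the table. The chromosome 1 entry took 51.5% of the miR-181a-5p reads in NR cats (47.9 to 55.1%), 45.5% in KD cats (37.1 to 54.0%), 48.8% in NR dogs (43.6 to 54.0%) and 47.2% in KD dogs (42.9 to 51.4%). All 4 intervals include 50%. For 7 other sequences with exactly 2 entries with reads and at least 100 reads in all, 6 of 28 library values had an interval that includes 50%, and 4 of those 6 belong to miR-26a-5p. The first-listed copy of let-7f-5p, for example, took between 16.5 and 22.0%, and that of miR-92a-3p between 80.0 and 90.0%. How the authors counted a read with several locations is not stated. If each such read was counted at every location, the sums for miR-181a-5p and miR-181b-5p hold it more than once. Their reads, ranks and shares would then be too high beside single-copy members, and their intervals too narrow. If it was counted at only a single location, an entry holds only a part of the reads. Which case applies was not tested.

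The copies of miR-181b-5p had too few reads to describe separately with any precision. On chromosome 1 NR cats had 16 reads of it, KD cats 3, NR dogs 8 and KD dogs 7, and on chromosome 2 the counts were 4, 6, 9 and 5. In NR cats the chromosome 1 entry took 80.0% of these reads, with an interval of 56.3 to 94.3% that leaves out 50%, and the other 3 libraries had intervals that include it. In cats the single copies took opposite directions on the normalized values, with log2 changes of -1.39 (-3.81 to 0.42) and 1.61 (-0.47 to 3.88), both within counting error of 0.

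**Figure D4:**
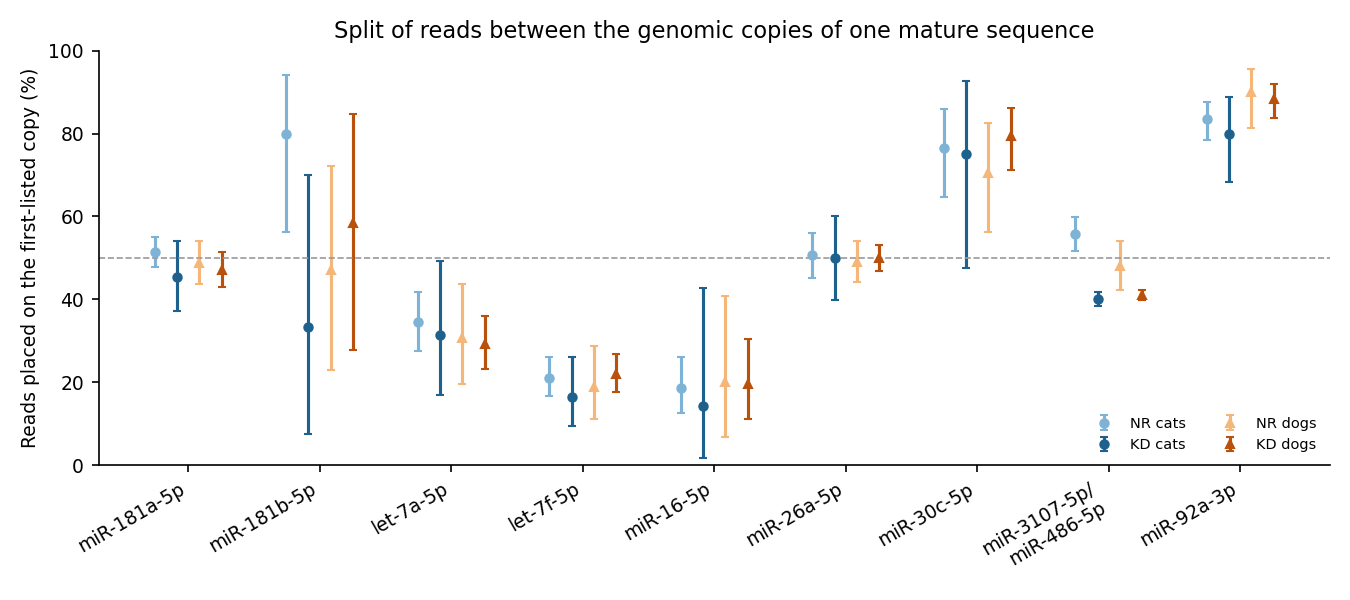
Share of the reads of 1 mature sequence that was placed on its first-listed genomic copy (y axis, %), for miR-181a-5p, miR-181b-5p and 7 other sequences with 2 entries, in each pooled library with 95% exact binomial intervals. The dashed line marks an even split of 50%. miR-181a-5p lies between 45.5 and 51.5%, and miR-181b-5p between 33.3 and 80.0% with wide intervals.

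The minor members held a larger part of the family in KD cats than in NR cats, while in dogs no such difference exceeded counting error. Together miR-181b, miR-181c and miR-181d had 24 of 795 family reads in NR cats, which is 3.02% (1.94 to 4.46%), and 14 of 157 in KD cats, which is 8.92% (4.96 to 14.5%). Relative to miR-181a-5p they were 3.14-fold higher in KD cats, with an exact conditional interval of 1.46 to 6.50. In dogs they had 30 of 403 reads in NR, which is 7.44% (5.08 to 10.5%), and 29 of 576 in KD, which is 5.03% (3.40 to 7.15%), a ratio of 0.659 (0.375 to 1.16). These ratios are taken within a library and carry no scaling factor. Between the NR libraries the minor members were 2.58-fold more frequent beside miR-181a in dogs than in cats (1.44 to 4.68), and between the KD libraries the ratio was 0.542 (0.269 to 1.14).

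**Figure D5:**
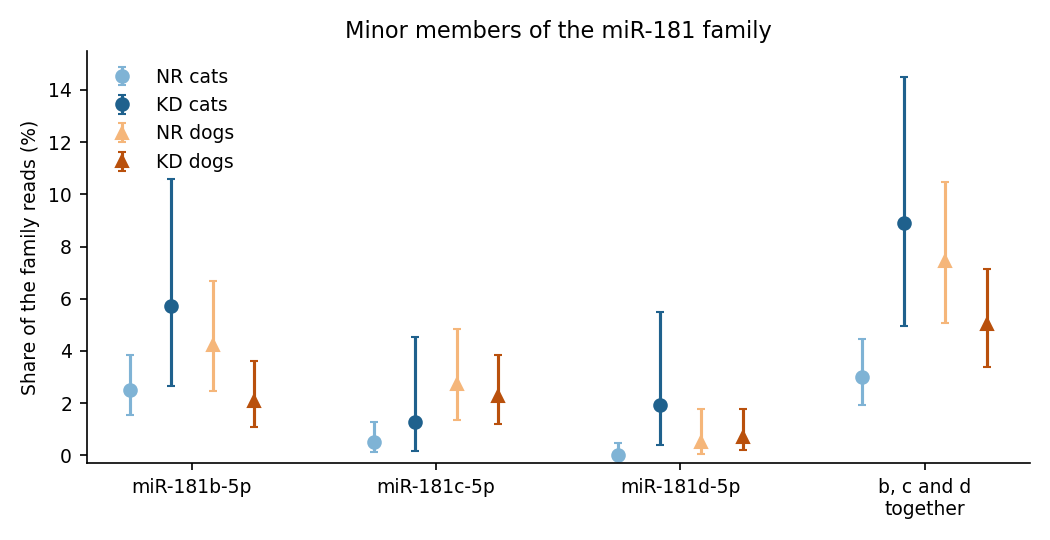
Share of the family reads (y axis, %) held by miR-181b-5p, miR-181c-5p and miR-181d-5p singly and together in each pooled library, with 95% exact binomial intervals. Together they stand at 3.02% for NR cats, 8.92% for KD cats, 7.44% for NR dogs and 5.03% for KD dogs.

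Taken singly, the minor members had intervals that include 0 on the deposited normalized values, and miR-181b-5p in dogs was lower beyond counting error under most other scalings. miR-181b-5p, which shares its precursor transcripts with miR-181a, had levels of 23.2 for NR and 21.2 for KD cats, with a log2 change of -0.13 (-1.45 to 1.07). In dogs its levels were 11.7 and 6.37, a log2 change of -0.88 (-2.08 to 0.27). Under the 7 scalings its change in dogs was below 0 in 7, from -2.34 to -0.50, with the interval below 0 and a fold past 2 in 5 of them, -1.70 with edgeR and -1.72 with DESeq2 among these. In cats it ran from -1.50 to 0.40, and the interval lay below 0 under total count scaling alone. Its ratio to miR-181a-5p was 2.42-fold higher in KD than in NR cats, with an interval of 0.952 to 5.70 that includes 1, and 0.482-fold in dogs (0.207 to 1.08). miR-181c-5p had levels of 4.63 and 4.71 in cats and 7.58 and 6.90 in dogs, and its log2 change was 0.03 in cats (-3.44 to 2.83) and -0.14 in dogs (-1.41 to 1.17), where the interval lay below 0 under 2 of the 7 scalings and the change ran from -1.60 to 0.24. It was more frequent beside miR-181a-5p in NR dogs than in NR cats, by 5.68-fold (1.67 to 24.6), on 11 and 4 reads. For miR-181d-5p no fold is given in cats, where both libraries were at or under 3 reads, and in dogs its log2 change was 0.62 (-2.18 to 4.09).

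By place of origin, the pair on chromosome 1 had 413 reads for NR and 68 for KD cats, the pair on chromosome 2 had 378 and 84, and the pair on chromosome 8 had 4 and 5. In dogs the pairs had 190, 200 and 13 reads in NR and 265, 294 and 17 in KD, in the same order. Nearly all reads of the family therefore fell on the entries of chromosomes 1 and 2. Since the copies share sequences, this says nothing of which of these 2 places was transcribed.

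The opposite strands of the same precursors were nearly without reads. Of the 6 miR-181 3p entries 2 had reads: miR-181c-3p with 1 in NR cats and 3 in NR dogs, and miR-181a-1-3p with 1 in KD cats. Over the 4 libraries the 3p entries had 5 reads against 1931 of the 5p entries, which is 0.258% of both (0.0839 to 0.602%). For miR-181c the 3p strand had 3 reads beside 11 of the 5p strand in NR dogs.

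The study also used miR-181a in ratios with let-7b and miR-10b, measured by quantitative PCR in single cats. There both ratios rose with serum creatinine among KD cats, and neither was correlated with renal function over all cats. Ratios of the same names were taken here between reads of 1 pooled library, which again removes the scaling factor. This is an unlike measure, and it cannot show a relation to creatinine. For each of 5 partners the ratio was compared between KD and NR in each species, which makes 10 comparisons. The ratio of miR-181a-5p to let-7b-5p, a member of the let-7 family of growth repressors, was 42.8 in NR cats (771 to 18 reads) and 35.8 in KD cats (143 to 4 reads). The KD ratio was thus 0.835 of that in NR, with an interval of 0.270 to 3.44 that includes 1. In dogs it was 124 in NR (373 to 3 reads) and 27.4 in KD (547 to 20 reads), 0.220 of NR (0.0416 to 0.750). The let-7b reads are so few that the intervals span over 10-fold in each species.

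Against miR-10b-5p, the most abundant entry of these libraries, miR-181a-5p was lower in KD in both species. Its ratio was 0.115 for NR and 0.00950 for KD cats, 0.0825 of NR (0.0683 to 0.0989), and in dogs 0.0311 and 0.0163, 0.523 of NR (0.456 to 0.599). miR-10b-5p itself had 6690 and 15050 reads in NR and KD cats and 11980 and 33624 in NR and KD dogs. The ratio was also lower against miR-30a-5p, which is abundant in kidney tubules, at 0.328 of NR in cats (0.265 to 0.404) and 0.634 in dogs (0.540 to 0.744). Against miR-191-5p, often used as a reference miRNA, it was 0.268 of NR in cats (0.213 to 0.337) and 0.684 in dogs (0.564 to 0.830). On the normalized values miR-191-5p itself had log2 changes of 0.49 in cats and 0.72 in dogs. By quantitative PCR of single cats, an unlike measure, the study reports raw miR-191 levels as lower in KD. It does not name miR-191 among the levels that differed after normalization to urinary creatinine or urinary RNA. Whether miR-191-5p is a steady reference in these libraries was not tested. None of these 6 intervals, for miR-10b, miR-30a and miR-191 in cats and dogs, includes 1. The result depends on the partners as well. In cats the median log2 change of reads was -1.68 over 32 names with at least 50 reads. There miR-10b-5p rose, and miR-30a-5p (1034 and 585 reads) and miR-191-5p (513 and 355 reads) fell less than that. A name at the median is thus also lower against each in cats. In dogs the median was 1.45 over 38 names, and miR-181a-5p was at 0.55.

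The species differed in the ratio of miR-181a to miR-142-5p, which blood cells express. In cats it was 1.86 in NR (771 to 415 reads) and 2.31 in KD (143 to 62 reads), 1.24 of NR with an interval of 0.892 to 1.74 that includes 1. In dogs it was 62.2 in NR (373 to 6 reads) and 4.88 in KD (547 to 112 reads), 0.0787 of NR (0.0280 to 0.179). A list of 7 white blood cell miRNAs, all with reads in some library, had a summed normalized level of 793 for NR cats, 299 for KD cats, 15.2 for NR dogs and 125 for KD dogs. Its log2 change was -1.41 in cats and 3.05 in dogs. The members differed among themselves in cats, at -1.72 for miR-142-5p, -0.86 for miR-146a-5p, -3.06 for miR-150-5p (17 and 1 reads) and -0.30 for miR-342-3p (5 and 2 reads). In dogs the list rested on 22 reads in NR and 236 in KD. There miR-142-5p was at 3.85, miR-146a-5p at 2.92 and miR-342-3p at -0.38 (5 reads in each library). In NR dogs 4 of the 7 were at 0, and in KD cats 3 were. miR-142-5p and miR-146a-5p held most of its reads, with 415 and 229 for NR cats, 62 and 62 for KD cats, 6 and 11 for NR dogs and 112 and 108 for KD dogs. The part of white blood cells in the miR-181a values was not tested.

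The miRNAs of the urinary tract that the label of the samples implies were present. Of 5 kidney tubule names and 7 epithelial names all had reads in some library, and the summed level of the tubule list ran from 762 in NR dogs to 1454 in KD cats, with a log2 change of 0.11 in cats (-0.04 to 0.25) and 0.84 in dogs (0.74 to 0.94). In cats this sum rests mainly on miR-30a-5p, with 1034 reads in NR and 585 in KD and a log2 change of 0.20. Other tubule members had lower values in KD cats, miR-204-5p at -1.70 and miR-192-5p at -0.86, while miR-194-5p had 7 reads in NR and 0 in KD and miR-215-5p had 3 and 5. The epithelial list had log2 changes of 1.04 in cats (0.64 to 1.44) and 1.21 in dogs (0.97 to 1.45). Relative to the median entry it was at 1.58 in cats and 0.18 in dogs. In cats miR-200a-3p alone was below 0, at -0.35 (13 and 5 reads). In dogs miR-205-5p alone was below 0, at -0.89 (20 and 14 reads), and miR-141-3p held most reads of the list in KD (388 of 596). The red blood cell list changed by 3.03 in cats and 3.89 in dogs, almost wholly through miR-486-5p and miR-3107-5p. These names carry the same mature sequence, so they are a single miRNA and not independent members. Of its other members, miR-451a (32 and 1 reads, log2 change -3.97) and miR-16-5p (140 and 14 reads, -2.30) were lower in KD cats. In dogs miR-451a was at 0.95 and miR-16-5p at 1.15, near the median entry at 1.03. Endothelial miR-126 had at most 6 reads in a library.

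Among 22 other mature names with a mean level of at least 50 in each species, the pair of changes most like that of miR-181a-5p belonged to miR-28a-3p. It had log2 changes of -0.62 in cats and 0.53 in dogs, a Euclidean distance of 0.86 over the 2 changes. The next were miR-22-3p, with -1.97 and 0.86 at a distance of 0.89, and miR-192-5p, with -0.86 and 0.90 at 0.91. By the log2 levels in the 4 libraries the nearest were miR-22-3p at a distance of 0.88, miR-21a-5p at 1.37 and miR-191-5p at 1.49. miR-22-3p was near by both measures, with levels of 1469 for NR cats, 375 for KD cats, 210 for NR dogs and 381 for KD dogs. These are descriptions over 4 libraries, and the distances of neighbours in this order differ by less than 0.03 for the changes.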

How the data were processed

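Small RNA of UExo was sequenced as 1 pooled library per group. The authors trimmed adaptors and short inserts, mapped the reads to mm10, the mouse genome, using Bowtie 1.0.0 with several locations per read allowed, and counted in StrandNGS those that fell on mouse small RNAs. CASAVA 1.8.2 is also named in the submitters' processing notes. The deposited table gives read counts and log2 values normalized by the authors with TMM. A deposited value is log2(count) shifted by a constant of its library. Where the result is below 0 it is written as 0 (47 entries with reads for NR dogs, 31 for KD dogs), so levels were computed here as count times factor. There were 4 emptied lines, not analysed here.

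Entries were matched by name, and copies were summed. Ratio intervals are exact conditional and share intervals exact binomial, at 95%, and 0 reads were taken to allow up to 3. No p-value was computed. Medians over all entries used levels plus 1, and change ranks added 0.5 to each count. Alternatives were 6 other scalings (none, total count, edgeR 4.0.16, DESeq2 1.42.0, totals without abundant entries), other minimums, folds and pseudocounts, and the highest or mean copy. The members and lists were chosen with earlier results of these data known. The named miRNAs were the family entries, its 3p strands, 5 ratio partners, and the 3 names nearest to miR-181a-5p by changes and by levels. The names below miR-181a in the change ranking, the examples of copy splits, miR-146a-5p and the other list members were named after their values were seen. The methods were tested on simulated counts. Scripts ran in R 4.3.3 and Python 3.11.15 with scipy 1.17.1, numpy 2.4.6, Biopython 1.88, pandas 2.3.3 and matplotlib 3.10.9. RT-qPCR data of single animals are not analysed here.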

Additional observations from a re-analysis of the deposited data

Results flagged for a closer look

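Several values moved in opposite directions in cats and dogs on the normalized values, a difference between species that was not tested because each group is 1 library. The dog minus cat difference in the log2 change from NR to KD was 1.45 for the family sum and 1.58 for miR-181a-5p. It was 1.71 for the miR-181a-5p entry on chromosome 1 and 1.46 for that on chromosome 2. In each of these the dog interval includes 0. For miR-181b-5p on chromosome 2 it was -2.83, on 24 reads over the 4 libraries, and for miR-181c-5p it was -0.16, with changes in both species well within counting error.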

How the results depend on the processing

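The change of the family in cats stayed below 0 under all 7 scalings, and in dogs it was above 0 under 2 and below 0 under 5. In cats it was -2.34 without scaling, -2.69 with total count scaling, -1.64 against the total without miR-10 and -0.78 against the reduced total (without miR-486, miR-3107 and miR-10). In dogs it was 0.52 without scaling, -1.09 with total count scaling, -0.69 with edgeR, -0.70 with DESeq2, -1.32 without miR-10 and -0.82 with the reduced total. The dog minus cat difference of the family was 2.85 without scaling, 0.51 with edgeR, 0.64 with DESeq2, 0.31 without miR-10 and -0.037 with the reduced total, where its sign turned within counting error. For miR-181a-5p the difference was 2.98, 0.63, 0.76, 0.44 and 0.090 in the same order. By construction these scalings differ in 1 factor per library. The highest copy in place of the sum, and the 2 pseudocounts, kept the changes of the family within their intervals, and the mean of copies gives the same change as the sum by construction. For the single mature names 56 values under alternatives lay within the interval of the reported value and 14 outside it. The 56 include values that are the same by construction, and the wide intervals of the minor members hold most others. For miR-181a-5p every other scaling in dogs lay outside the interval, and in cats every other scaling but those of edgeR and DESeq2 did.

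Counts of entries past the cut-offs moved as follows. The 7 lower in KD cats became 14 without scaling, 16 with total count scaling, 4 with the reduced total, 11 and 4 at folds of 1.5 and 3, 15 at a level over 50 and 117 with no filter. The 4 higher in KD cats became 2 with total count scaling, 7 with the reduced total, 9 at a level over 50 and 50 with no filter. The 0 lower in KD dogs became 3 with total count scaling, 1 with edgeR, 1 with DESeq2, 3 without miR-10, 1 with the reduced total and 13 with no filter. The 7 higher in KD dogs became 21 without scaling, 3 with total count scaling, 4 with edgeR, 4 with DESeq2, 2 without miR-10, 4 with the reduced total, 15 at a fold of 1.5, 16 at a level over 50 and 64 with no filter.

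Taking the highest copy of each name lowers the members with 2 copies and not those with 1. miR-181a-5p then held 95.2% of the family for NR cats, 87.6% for KD cats, 89.7% for NR dogs and 92.3% for KD dogs. miR-181c-5p held 5.16% for NR and 4.15% for KD dogs. The ratios to partners stayed within their intervals. No replicate could be left out and no paired analysis was possible because each group is 1 library. Depth limits the minor members, whose largest count was 20 reads.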
